A study of Mus musculus with 6 samples.

Results

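The aryl hydrocarbon (Ah) receptor genes were followed in liver tumors of WT and Nr2e3-/- mice. They were the 7 genes Ahr, Arnt, Ahrr, Cyp1a1, Cyp1a2, Cyp1b1 and Tiparp, taken by symbol from a table of 24063 genes in which all 7 were listed. RNA was sequenced from tumors of 3 WT mice (NR2E3+/+) and 3 Nr2e3-/- mice (NR2E3-/-), 1 library per mouse. All 6 were C57BL/6 males that had received the liver carcinogen diethylnitrosamine (DEN) intraperitoneally at 25 mg per kg, at 15 days of age, and the tumors belonged to the 24-week time point. How the Nr2e3-/- line was made is not given in the sources used here. Nr2e3 encodes an orphan nuclear receptor, and the comparison asks which transcripts differ between tumors that formed with and without it.

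The Ah receptor is a ligand-activated transcription factor of the bHLH-PAS family that is held in the cytosol by a complex with Hsp90, the co-chaperone p23 and the kinase Src. Ligands such as dioxins, polycyclic hydrocarbons and tryptophan metabolites send it to the nucleus, where it pairs with Arnt and binds the xenobiotic response element, whose core reads GCGTG. In the liver it switches on the CYP1 enzymes, which oxidise foreign chemicals, and the genes of its own inhibitors Ahrr and Tiparp, which close a negative feedback loop.

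The region just before the transcription start is one place where such elements can be sought, and 6 of the 7 genes had an entry in the RefSeq promoter table (GRCm38.p6). The 250 bases before each start were searched on both strands for the element's core (GCGTG or CACGC) and for the GC box (GGGCGG or CCGCCC), the sequence that Sp1 binds. A core was present in 5 of the 6 windows, against 28.3% of all 32536 promoters in the table. Arnt, Cyp1a1, Cyp1b1 and Tiparp had 1 core each and Ahrr had 3, while the window of Cyp1a2 had none. G and C made up 53.6% to 75.2% of the bases in the 5 windows with a core and 47.2% in that of Cyp1a2. The share over all promoters was not matched for this base content. GC boxes were found in Ahrr (2, which share 1 base) and Cyp1b1 (1), against 32.97% of all promoters, and none of them overlapped a core. These are matches of letters, not measured binding. Bases further from the start were not searched, so a window without a core does not show that the gene lacks such elements. Below are 4 of the windows, 5′ to 3′ on the gene's strand with the cores in capitals, chosen because Cyp1a1, Tiparp and Ahrr are textbook direct targets of the receptor and Cyp1a2 is the most abundant of the 7 transcripts. The window of Cyp1a1 is chr9:57697363-57697612 (plus strand), that of Cyp1a2 is chr9:57683704-57683905 (minus), that of Tiparp is chr3:65528197-65528409 (plus) and that of Ahrr is chr13:74292332-74292581 (minus). For Cyp1a2 and Tiparp the bases next to the start were left out because GENCODE M21 annotates them as exon of the same gene. The window of Cyp1a1 lies inside the annotated gene, which has a further start upstream, and overlaps no annotated exon.
Cyp1a1: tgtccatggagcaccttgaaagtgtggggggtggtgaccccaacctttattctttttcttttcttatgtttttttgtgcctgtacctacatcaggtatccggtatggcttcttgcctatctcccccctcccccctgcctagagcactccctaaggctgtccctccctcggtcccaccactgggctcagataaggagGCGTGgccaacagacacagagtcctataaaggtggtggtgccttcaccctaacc
Cyp1a2: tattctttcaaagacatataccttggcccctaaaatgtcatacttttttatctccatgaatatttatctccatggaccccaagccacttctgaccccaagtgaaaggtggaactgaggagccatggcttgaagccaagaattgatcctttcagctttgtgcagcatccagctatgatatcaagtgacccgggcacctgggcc
Tiparp: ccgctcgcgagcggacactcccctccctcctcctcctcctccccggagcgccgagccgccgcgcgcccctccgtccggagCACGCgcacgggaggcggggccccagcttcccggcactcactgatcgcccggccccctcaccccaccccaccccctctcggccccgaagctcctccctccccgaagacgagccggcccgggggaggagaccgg
Ahrr: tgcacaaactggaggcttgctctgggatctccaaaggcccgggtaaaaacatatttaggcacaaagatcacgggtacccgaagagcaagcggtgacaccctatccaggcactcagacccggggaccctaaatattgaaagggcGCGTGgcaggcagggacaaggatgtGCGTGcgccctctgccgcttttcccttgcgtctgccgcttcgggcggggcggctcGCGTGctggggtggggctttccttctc

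Total counts were between 25250090 and 28690279 in the WT libraries and between 15376261 and 28336305 in the Nr2e3-/- libraries. Nr2e3 (chromosome 9 from 59942771 to 59960834) had 0 counts in every library of both groups, which allows up to 0.101 to 0.199 counts per 1000000 (CPM) depending on the library, so its count could not check the genotype labels. Across genes, the log2 CPM of Nr2e3-/- replicate 1 correlated at 0.973 to 0.981 with the WT libraries and at 0.952 and 0.972 with the other Nr2e3-/- libraries. That library therefore stood apart from its group, and tests below are given with and without it. Levels per library, levels per kb and nearest profiles are given over all 6 libraries. Hepatocyte markers such as Alb and Ttr were abundant in all 6 libraries, at a summed level of 132292 to 161808 CPM in WT and 119345 to 138537 CPM in Nr2e3-/- tumors. Summed bile duct markers were at 119, 59.3 and 57.3 CPM in WT replicates 1 to 3. In Nr2e3-/- replicates 1 to 3 they were at 69.1, 429 and 185 CPM. Spp1 made up most of the sum in every library. Of the 5 that could be tested 2, Epcam and Spp1, had an edgeR unadjusted p under 0.05, where 21.5% of all genes tested had. Epcam was called higher by DESeq2, by limma-voom and by edgeR without Nr2e3-/- replicate 1, and Spp1 only by the last of these. Summed neutrophil markers (3 of 4 listed) were at 1.49 to 2.74 CPM in WT tumors and at 2.25, 21.9 and 13.1 CPM in Nr2e3-/- replicates 1 to 3. Both that could be tested, S100a8 and S100a9, had an edgeR unadjusted p under 0.05. They were called higher by DESeq2, by limma-voom and by edgeR without Nr2e3-/- replicate 1. In those fits 4.87%, 9.48% and 12.2% of all genes were called higher. Summed macrophage markers were at 201 to 264 CPM in WT tumors and at 189, 436 and 231 CPM in Nr2e3-/- replicates 1 to 3, and pericentral hepatocyte markers at 8214 to 10649 CPM and at 9481, 6475 and 8511 CPM. None of these markers was at 0 in any library.

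Over all genes, 13572 passed a filter on low counts and were tested with edgeR's quasi-likelihood test, in which fold changes are on the log2 scale, Nr2e3-/- over WT, and a gene is called at a Benjamini-Hochberg adjusted p under 0.05. Of the 7 genes 6 passed the filter and Ahrr did not. None of the 6 was called, where 0.0958% of all genes tested were (13 genes, 0.0663% higher and 0.0295% lower), and 1 of the 6, Ahr, had an unadjusted p under 0.05, where 21.5% of all genes tested had (11.8% higher and 9.72% lower). DESeq2 called 1 of them, Ahr, where it called 7.93% of all genes (4.87% higher and 3.06% lower), and limma-voom also called only Ahr among them, where it called 17.4% (9.48% higher and 7.91% lower). Without Nr2e3-/- replicate 1, edgeR called 2 of them, Ahr and Tiparp, where it called 21.8% of all genes (12.2% higher and 9.65% lower). WT and Nr2e3-/- libraries were fully separated for 2 of the 6, Ahr (higher in Nr2e3-/- tumors) and Cyp1a1 (lower), where 26.8% of all genes tested were (13.9% higher and 12.9% lower). Normalized CPM values below were scaled with TMM factors, and as tumors are mixtures of cells, fewer cells of a type and less RNA per cell cannot be told apart.

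**Figure D1:**
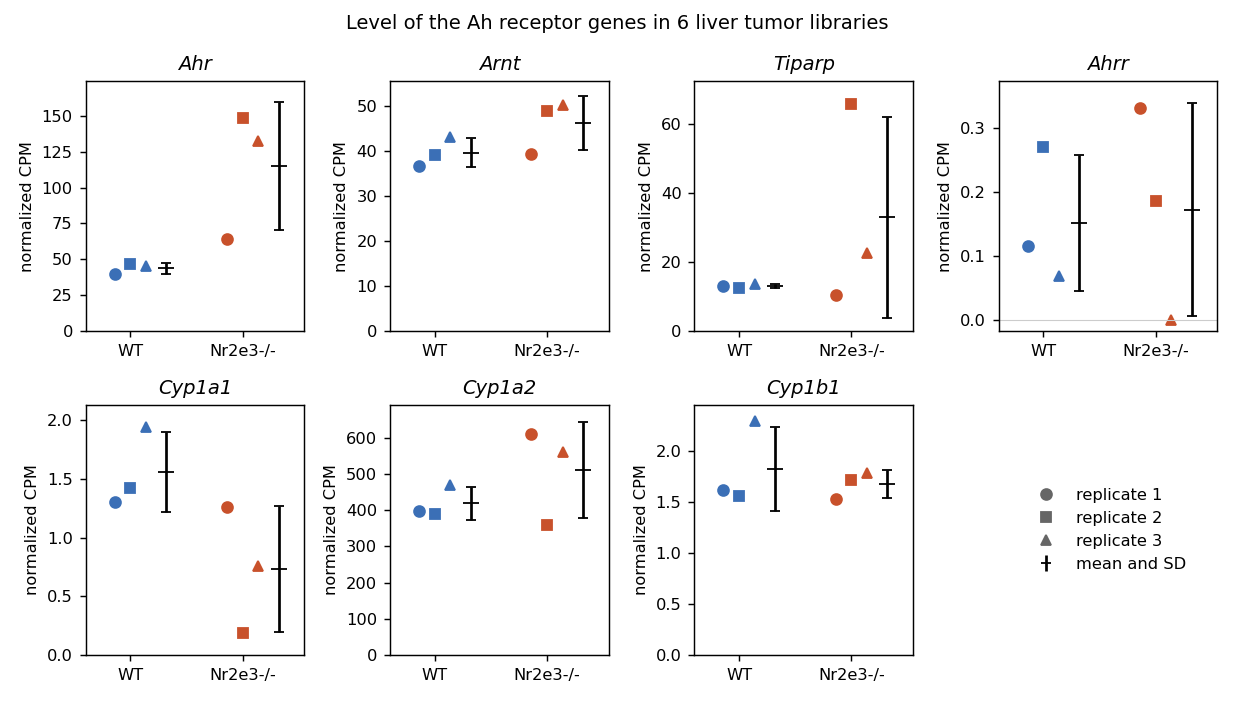
Normalized CPM (linear axes, one scale per gene) of the 7 Ah receptor genes in 3 WT and 3 Nr2e3-/- tumor libraries. Each symbol is a library, and the bar is the group mean with 1 SD. Ahr was at 39.5 to 46.5 CPM in WT and 64.2 to 149 CPM in Nr2e3-/- tumors, while the Tiparp mean of the Nr2e3-/- group rested on replicate 2 at 65.7 CPM.

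The receptor itself was higher in the Nr2e3-/- tumors by a difference that passed the threshold in some fits and not in others. Ahr (chromosome 12 from 35497979 to 35534989, minus strand) was at 39.5, 46.5 and 45.7 CPM in WT replicates 1 to 3 and at 64.2, 149 and 132 CPM in Nr2e3-/- replicates 1 to 3. All 3 Nr2e3-/- libraries lay above all 3 WT libraries, with replicate 1 closest to WT and replicates 2 and 3 well above it. The group means were 43.9 ± 3.82 (SD, n = 3) and 115 ± 44.8 CPM (SD, n = 3), a ratio of 2.62. The edgeR log2 fold change was 1.39 (SE 0.29), with an adjusted p of 0.0984, so the difference did not pass the threshold. Only 2.98% of the genes tested had a larger absolute fold change. The exact permutation test of the means, two-sided, gave p = 0.1, the smallest that 3 against 3 libraries allow.

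The call for Ahr depended on the model and on Nr2e3-/- replicate 1. Without that library the log2 fold change was 1.69 (SE 0.11) with an edgeR adjusted p of 0.00138, and the mean of the other two Nr2e3-/- libraries was 140 CPM, 3.20 times the WT mean. With all 6 libraries, DESeq2 gave 1.40 (adjusted p = 0.000323) and limma-voom with library weights gave 1.49 (adjusted p = 0.0126). Over all 13 alternatives the log2 fold change of Ahr stayed between 1.17 and 1.69 and its adjusted p ran from 0.000323 to 0.340. Exons of Ahr share 127 bases with exons of Gm48236, a noncoding gene on the opposite strand that the count table did not list. Whether counting used strand is not given in the sources used here.

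Arnt, the partner without which the receptor cannot bind DNA, differed little. Arnt (chromosome 3 from 95434367 to 95497240, plus strand) was at 36.7, 39.0 and 43.1 CPM in WT replicates 1 to 3 and at 39.3, 48.8 and 50.3 CPM in Nr2e3-/- replicates 1 to 3. The groups overlapped through Nr2e3-/- replicate 1, which lay between WT replicates 2 and 3. The log2 fold change was 0.22 (SE 0.13, edgeR adjusted p = 0.350), and without that library it was 0.33 (SE 0.10, edgeR adjusted p = 0.0576).

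Within a library the receptor and its partner can be compared without any scaling. In a comparison chosen after the values were seen, the count ratio of Ahr to Arnt was 1.07, 1.19 and 1.06 in WT replicates 1 to 3 and 1.63, 3.05 and 2.63 in Nr2e3-/- replicates 1 to 3. The ratio was higher in each Nr2e3-/- tumor than in each WT tumor.

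Tiparp and Ahrr encode inhibitors of the receptor. Tiparp is a mono-ADP-ribosyltransferase that modifies the receptor and lowers its activity. Tiparp (chromosome 3 from 65528447 to 65555518, plus strand) was at 13.2, 12.6 and 13.6 CPM in WT replicates 1 to 3, a spread of 0.508 CPM (SD). In Nr2e3-/- replicates 1 to 3 it was at 10.5, 65.7 and 22.5 CPM. Replicate 1 lay below every WT library, and replicates 2 and 3 above every WT library. The log2 fold change was 1.34 (SE 0.58, edgeR adjusted p = 0.239). Without replicate 1 Tiparp was 1.77 higher on the log2 scale (SE 0.39, edgeR adjusted p = 0.0250, past the threshold), and without replicate 2 the value was 0.34 (SE 0.29, edgeR adjusted p = 0.531). Over the 13 alternatives the adjusted p of Tiparp ran from 0.0250 to 0.531.

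The library with the highest Tiparp, Nr2e3-/- replicate 2, also had the highest summed bile duct, neutrophil and macrophage markers of the 6, at 429, 21.9 and 436 CPM, and the lowest summed pericentral markers, at 6475 CPM. The bile duct sum of that library was mostly Spp1, and Epcam was also highest there. The other bile duct markers were not raised in it. Krt7 and Sox9 were below every WT library, and Krt19 and Cftr lay within the WT range. Krt7, Krt19 and Cftr had only 14, 18 and 10 counts in that library. Whether the high sum came from more bile duct cells was not tested. Cyp1a1 and Cyp1a2, described below, were lowest in the same library, Nr2e3-/- replicate 2. The part of the marked cell types in the values of Tiparp, Cyp1a1 and Cyp1a2 was not tested. Exons of Tiparp share 223 bases with those of 4931440P22Rik, a transcribed pseudogene on the opposite strand. 4931440P22Rik was at 0.384, 0.304 and 0.381 CPM in WT replicates 1 to 3 and at 0.331, 1.23 and 0.324 CPM in Nr2e3-/- replicates 1 to 3, so it too was highest in Nr2e3-/- replicate 2. Its log2 fold change was 0.89 (SE 0.57, edgeR adjusted p = 0.393). The Tiparp promoter window printed above lies wholly within an exon of this pseudogene.

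Ahrr encodes the Ah receptor repressor, which competes with the receptor for Arnt. Ahrr (chromosome 13 from 74211118 to 74292331, minus strand) had 3, 8 and 2 counts in WT replicates 1 to 3 and 5, 5 and 0 counts in Nr2e3-/- replicates 1 to 3. These counts, from 0 to 8, lay around the limit that a count of 0 allows (3 counts per library) and were under the filter, so Ahrr was not tested. The count of 0 in Nr2e3-/- replicate 3 allows up to 0.162 CPM. At this depth a difference in Ahrr was not detectable.

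None of the CYP1 enzymes, the best known targets of the receptor, passed the threshold, and their fold changes differed in sign. Cyp1a1 (chromosome 9 from 57687928 to 57703824, plus strand), an oxidase of polycyclic hydrocarbons and the classical readout of receptor activity, was at 1.31, 1.42 and 1.94 CPM in WT replicates 1 to 3. In Nr2e3-/- replicates 1 to 3 it was at 1.26, 0.186 and 0.757 CPM. All 3 Nr2e3-/- libraries were below all 3 WT libraries, but replicate 1 only narrowly, since its 19 counts give a 95% Poisson interval of 0.757 to 1.96 CPM and the 34 counts of WT replicate 1 give one of 0.904 to 1.82 CPM. The 5 counts of Nr2e3-/- replicate 2 give an interval of 0.0603 to 0.433 CPM. These intervals cover counting error only. The log2 fold change was -1.17 (SE 0.58, edgeR adjusted p = 0.283). Without Nr2e3-/- replicate 1 it was -1.80 (SE 0.56, edgeR adjusted p = 0.0637), and without Nr2e3-/- replicate 2 it was -0.64 (SE 0.36, edgeR adjusted p = 0.365).

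Cyp1a2 (chromosome 9 from 57676937 to 57683655, minus strand), the neighbouring paralog that hepatocytes express without inducer and that oxidises caffeine and aromatic amines, was at 397, 389 and 471 CPM in WT replicates 1 to 3. In Nr2e3-/- replicates 1 to 3 it was at 612, 361 and 562 CPM. Replicates 1 and 3 were above all WT libraries and replicate 2 below all of them. The log2 fold change was 0.29 (SE 0.21, edgeR adjusted p = 0.441), 0.15 without Nr2e3-/- replicate 1 and 0.49 without Nr2e3-/- replicate 2, none past the threshold.

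Cyp1b1 (chromosome 17 from 79706940 to 79715061, minus strand), a CYP1 enzyme found mainly outside hepatocytes, was at 1.61, 1.56 and 2.29 CPM in WT replicates 1 to 3 and at 1.52, 1.71 and 1.78 CPM in Nr2e3-/- replicates 1 to 3. The WT range was the wider one and the groups overlapped. The log2 fold change was -0.12 (SE 0.25, edgeR adjusted p = 0.801), -0.05 without Nr2e3-/- replicate 1, and it turned to 0.08 without WT replicate 3. Cyp1a1 and Cyp1a2 lie 2.239 and 2.259 Mb from Nr2e3 on chromosome 9, and the other 5 genes lie on other chromosomes.

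**Figure D2:**
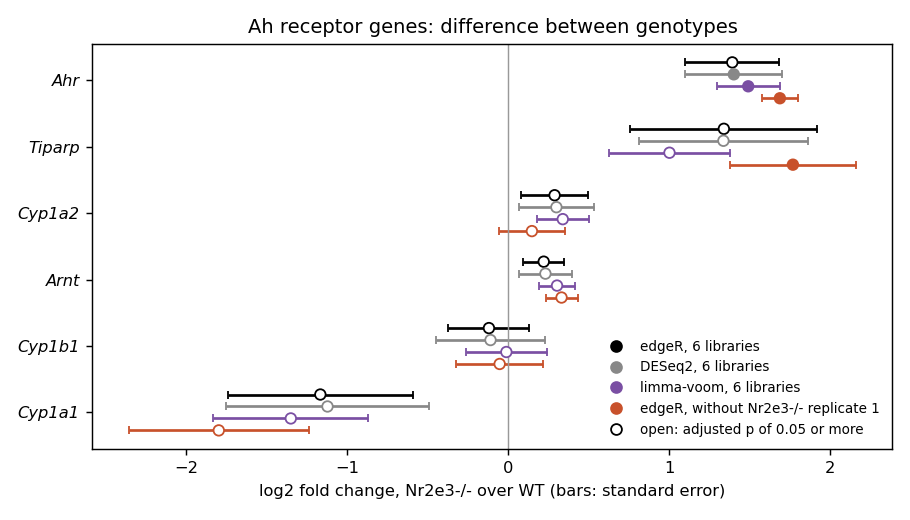
Log2 fold change (Nr2e3-/- over WT) of the 6 Ah receptor genes that passed the filter, by edgeR, DESeq2 and limma-voom on all 6 libraries and by edgeR without Nr2e3-/- replicate 1. Bars are standard errors, filled points have an adjusted p under 0.05 and open points do not. Filled points are found for Ahr in 3 of the fits and for Tiparp in the fit without replicate 1.

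The ratio of Cyp1a1 to Cyp1a2 was taken within each library, where it does not depend on scaling. The log2 count ratio was -8.25, -8.10 and -7.92 in WT replicates 1 to 3 and -8.93, -10.92 and -9.54 in Nr2e3-/- replicates 1 to 3. Each Nr2e3-/- tumor had a lower ratio than each WT tumor, and the means differed by -1.71 on the log2 scale (p = 0.1 by an exact two-sided permutation test, which cannot go lower with 3 against 3). The difference was -2.14 without Nr2e3-/- replicate 1 and -1.14 without Nr2e3-/- replicate 2. The paralogs share sequence, as 4.91% of the 36-base windows in the Cyp1a1 transcripts also occur in those of Cyp1a2 and 6.83% of the Cyp1a2 windows in those of Cyp1a1. Cyp1a2 had 9250 to 13573 counts per library against 5 to 56 for Cyp1a1. How reads from shared windows were assigned is not given in the sources used here, so both the Cyp1a1 counts and the ratio are uncertain.

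Levels of different genes were compared as CPM per kb of annotated exon. In WT tumors Cyp1a2 was far above the rest at 216 CPM per kb, higher than 98.7% of the 17865 genes ranked this way. Arnt at 8.20 (range 7.61 to 8.92) and Ahr at 7.91 (range 7.12 to 8.37) came next, and their ranges overlapped. Tiparp followed at 3.12, Cyp1a1 at 0.558 (range 0.468 to 0.697), Cyp1b1 at 0.349 (range 0.299 to 0.440) and Ahrr at 0.0319 CPM per kb, all non-overlapping with their neighbours. In Nr2e3-/- tumors Cyp1a2 was at 264, Ahr at 20.7 (range 11.6 to 26.8), Arnt at 9.56 (range 8.14 to 10.4) and Tiparp at 7.86 CPM per kb (range 2.51 to 15.7). There Ahr no longer overlapped Arnt, Tiparp overlapped both, and Cyp1a1 at 0.263 (range 0.0666 to 0.451) overlapped Cyp1b1 at 0.321 CPM per kb.

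**Figure D3:**
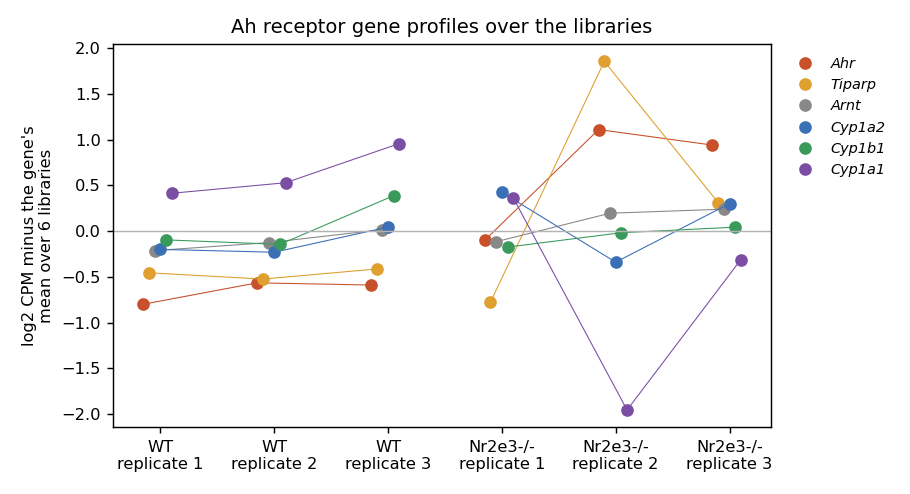
Log2 CPM of the 6 tested Ah receptor genes in each library minus the gene's mean over the 6 libraries. Points are libraries, and the thin lines only connect points of a gene within a group, as replicates have no order. In Nr2e3-/- replicate 2 Tiparp was at 1.86 and Cyp1a1 at -1.96 relative to its own mean, while in Nr2e3-/- replicate 1 Ahr was at -0.10.

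Across libraries the 6 genes followed different courses. The genes tested whose profiles came closest were sought by the root mean square difference of mean-centred log2 CPM over the 6 libraries, as a description with no test. Closest to Ahr were Zbtb20 (0.0981), Slc41a1 (0.107) and Crybg3 (0.108), all of which had their highest levels in Nr2e3-/- replicates 2 and 3. Closest to Cyp1a1 were Sparcl1 (0.142), Cldn8 (0.149) and Pth1r (0.152), and each of these was lowest in Nr2e3-/- replicate 2. Tiparp was nearest to Fam107b (0.196), Peak1 (0.238) and Dyrk3 (0.244), with the peak in the same library. Cyp1a2 was nearest to Chd1l (0.0607), Otc (0.0755), which encodes a urea cycle enzyme, and St3gal5 (0.0803). Arnt lay nearest to Maf1 (0.0376), Naa50 (0.0381) and Pcyt1a (0.0391), and Cyp1b1 to Gas2 (0.0506), Znrf3 (0.0568) and Lrp6 (0.0589).

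The cytosolic complex that holds the receptor contained the only called gene of the pathway. Hsp90aa1, the inducible Hsp90 isoform, was at 41.0, 36.1 and 29.1 CPM in WT replicates 1 to 3 and at 97.3, 104 and 120 CPM in Nr2e3-/- replicates 1 to 3. The groups were far apart and Nr2e3-/- replicate 1 lay with its group. Hsp90aa1 rose by 1.60 on the log2 scale (SE 0.16, edgeR adjusted p = 0.0340), and by 1.67 without Nr2e3-/- replicate 1 (edgeR adjusted p = 0.00262). Leaving out any WT library or Nr2e3-/- replicate 3 ended the call, and over the 13 alternatives its adjusted p ran from 6.33e-15 to 0.251 with a log2 fold change of 1.47 to 1.72.

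Of the 5 genes of that complex tested, 1 was called higher and none lower, and their median log2 fold change was 0.40 against 0.01 over all genes tested (0.44 without Nr2e3-/- replicate 1). At an unadjusted p under 0.05 there were 3 higher and 1 lower, where 11.8% and 9.72% of all genes tested were. Hsp90ab1, the constitutive isoform, was at 852, 842 and 757 CPM in WT and at 1342, 1335 and 1424 CPM in Nr2e3-/- replicates 1 to 3, without overlap (log2 fold change 0.74, SE 0.12, edgeR adjusted p = 0.0875). Ptges3, which encodes p23, was at 37.2, 37.8 and 38.2 CPM in WT and at 47.6, 48.8 and 53.2 CPM in Nr2e3-/- replicates 1 to 3, again without overlap (log2 fold change 0.40, SE 0.09, edgeR adjusted p = 0.109). Without Nr2e3-/- replicate 1 both passed the threshold, at edgeR adjusted p-values of 0.0102 and 0.0174. With all 6 libraries the groups were fully separated for 3 of the 5 genes, all higher, where 13.9% of all genes tested were. Src had a log2 fold change of -0.83 (SE 0.35, edgeR adjusted p = 0.229) with overlapping groups, and -0.66 without Nr2e3-/- replicate 1 (edgeR adjusted p = 0.235). DESeq2 and limma-voom each called 3 of the 5 higher and none lower, where they called 4.87% and 9.48% of all genes higher.

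The wider targets of the receptor, a list of 19 genes that hold phase II enzymes, transporters and metabolic genes, gave no call among the 16 tested by edgeR. At an unadjusted p under 0.05 there were 2 lower and none higher of the 16, where 9.72% and 11.8% of all genes tested were, and the median log2 fold change was -0.08. The groups were fully separated for 5 lower and 1 higher of the 16, where 12.9% and 13.9% of all genes tested were. DESeq2 called 1 lower and limma-voom 3 lower, where they called 3.06% and 7.91% of all genes lower. Without Nr2e3-/- replicate 1 edgeR called 3 higher (Ugdh, Slc7a5 and Socs2) and 2 lower (Cd36 and Cyp2s1, the latter from 2 and 1 counts), where 12.2% and 9.65% of all genes were, and the median was -0.00328. Cd36, a fatty acid transporter, was at 146, 162 and 123 CPM in WT and at 96.9, 80.9 and 67.6 CPM in Nr2e3-/- replicates 1 to 3, so each Nr2e3-/- library was below each WT library (log2 fold change -0.81, SE 0.17, edgeR adjusted p = 0.0963, and -0.94 with 0.0106 without Nr2e3-/- replicate 1). Nfe2l2, which encodes the oxidative stress regulator Nrf2, had a log2 fold change of -0.47 (SE 0.16, edgeR adjusted p = 0.174) and also did not overlap, with -0.46 and 0.126 without that library. Slc46a3, a lysosomal transporter, had one of 0.24 (SE 0.11, edgeR adjusted p = 0.257), and 0.21 with 0.208 without it. Ugdh, which makes the substrate for glucuronidation, had one of 0.47 (SE 0.22, edgeR adjusted p = 0.262), and 0.66 with 0.0409 without it. Ugt1a6a, Ugt1a6b and Ugt1a7c, which encode glucuronosyltransferases, had nearly identical counts and share exons, so their values are not separate measurements. Aldh3a1 and Serpinb2 were among the genes under the filter.

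Enzymes of the tryptophan to kynurenine route, which makes endogenous ligands of the receptor, gave no edgeR call among the 9 of 10 tested, with Ido1 under the filter. At an unadjusted p under 0.05 there was 1 higher and none lower of the 9, where 11.8% and 9.72% of all genes tested were, and the median log2 fold change was -0.07. DESeq2 called none of them and limma-voom called 1 higher (Aadat), where it called 9.48% of all genes higher. Without Nr2e3-/- replicate 1 edgeR called 1 lower, Ido2 (-0.67, adjusted p = 0.0221), where 9.65% of all genes were, and the median was -0.32. In that fit Aadat, Kmo and Il4i1, named next, were at 0.36, 0.11 and -0.92, none past the threshold. Aadat, an aminotransferase that forms kynurenic acid, had a log2 fold change of 0.45 (SE 0.17, edgeR adjusted p = 0.191) and Kmo, kynurenine monooxygenase, one of 0.22 (SE 0.13, edgeR adjusted p = 0.372). Il4i1, an amino acid oxidase of immune cells, had one of -0.64 (SE 0.41, edgeR adjusted p = 0.386). Tdo2, the hepatic tryptophan dioxygenase at the head of the route, was at 1560, 1466 and 1667 CPM in WT and at 1916, 814 and 1221 CPM in Nr2e3-/- replicates 1 to 3. Its groups overlapped and its log2 fold change of -0.25 (SE 0.29, edgeR adjusted p = 0.636) turned to 0.01 without Nr2e3-/- replicate 2 and was -0.61 without Nr2e3-/- replicate 1 (edgeR adjusted p = 0.0685).

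The receptor's bHLH-PAS relatives gave no edgeR call among the 6 of 13 tested, with 1 higher and none lower at an unadjusted p under 0.05, where 11.8% and 9.72% of all genes tested were, a median log2 fold change of -0.04 and no call by DESeq2 or limma-voom. When Nr2e3-/- replicate 1 was left out edgeR called 1 higher, Hif1a, where 12.2% of all genes were, and the median was 0.06. Epas1, which encodes HIF-2α, had a log2 fold change of 0.27 (SE 0.11, edgeR adjusted p = 0.210) and Arntl, the clock gene for BMAL1, one of -0.24 (SE 0.32, edgeR adjusted p = 0.682), and without that library they were at 0.22 and -0.46, neither past the threshold. Hif1a had a log2 fold change of 0.56 (SE 0.30, edgeR adjusted p = 0.314), which was 0.82 without Nr2e3-/- replicate 1 (edgeR adjusted p = 0.0430) and 0.13 without Nr2e3-/- replicate 2 (edgeR adjusted p = 0.666). Arnt2, an Arnt paralog, was at 0.922, 5.01 and 0.451 CPM in WT and at 0.0662, 1.23 and 0.162 CPM in Nr2e3-/- replicates 1 to 3. WT replicate 2 was far above the other WT libraries, and the log2 fold change of -1.97 (SE 1.12, edgeR adjusted p = 0.339) ranged from -4.11 to -0.35 when 1 library was left out.

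Coregulators and degradation factors of the receptor gave no edgeR call among 14 tested, with 3 higher and 1 lower at an unadjusted p under 0.05, where 11.8% and 9.72% of all genes tested were, and a median log2 fold change of 0.21. DESeq2 called 1 higher and 1 lower (4.87% and 3.06% of all genes) and limma-voom 3 higher and 1 lower (9.48% and 7.91%). With Nr2e3-/- replicate 1 left out edgeR also called 3 higher and 1 lower (12.2% and 9.65% of all genes), and the median was 0.26. The genes called in that fit were Rela (0.99, adjusted p = 0.00359), Smarca4 (0.53, adjusted p = 0.0141), Sp1 (0.42, adjusted p = 0.0191) and Ncoa1 (-0.51, adjusted p = 0.0199). With all 6 libraries Ncoa1, the coactivator SRC-1, had a log2 fold change of -0.50 (SE 0.11, edgeR adjusted p = 0.0984), and Smarca4, the BRG1 chromatin remodeler, one of 0.48 (SE 0.10, edgeR adjusted p = 0.0963). Neither overlapped between the groups. Sp1, the GC box factor, was at 41.5, 43.9 and 44.6 CPM in WT and at 48.9, 56.7 and 58.2 CPM in Nr2e3-/- replicates 1 to 3 (log2 fold change 0.33, SE 0.11, edgeR adjusted p = 0.154). Every Nr2e3-/- library was above every WT library for Sp1. The groups were fully separated for 3 higher and 1 lower of the 14, where 13.9% and 12.9% of all genes tested were. Rela, the NF-κB subunit that the receptor can bind, had a log2 fold change of 0.72 (SE 0.25, edgeR adjusted p = 0.176), and its Nr2e3-/- replicate 1 lay within the WT range.

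**Figure D4:**
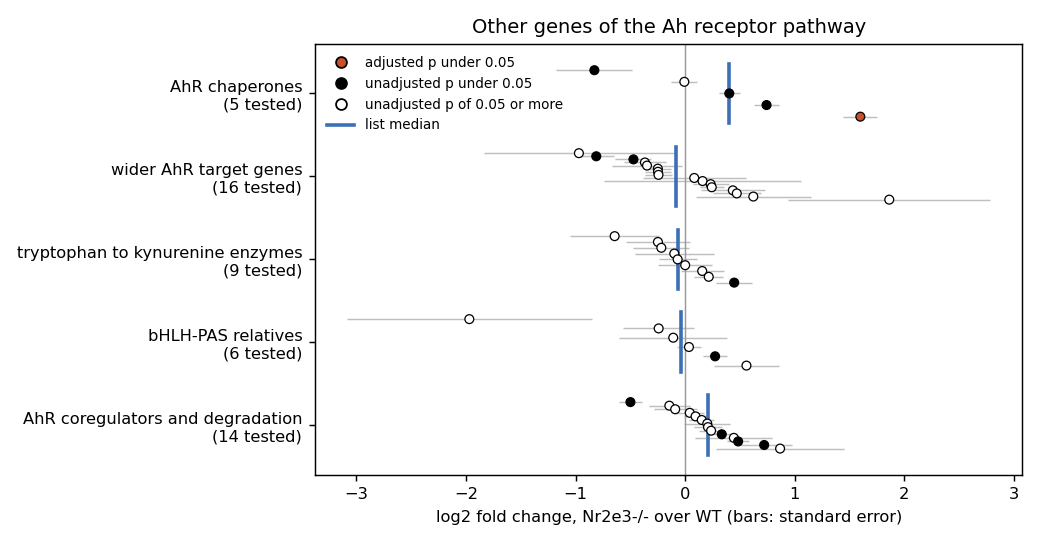
Log2 fold change (Nr2e3-/- over WT) of the tested genes in 5 lists of the Ah receptor pathway, with standard errors as grey bars and list medians as blue lines. The filled red point is Hsp90aa1 at 1.60, the only gene with an adjusted p under 0.05, black points have an unadjusted p under 0.05 and open points do not. List medians lie between -0.08 and 0.40.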

How the data were processed

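RNA was extracted with a miRvana kit and made into TruSeq libraries. The authors aligned single-end reads to mm10 (GRCm38) with TopHat, counted them per gene with featureCounts and deposited raw counts. Tool versions for these steps, the annotation and the strand setting are not given in the sources used here. The authors also deposited a normalized table and a DESeq2 comparison table with fold changes and p-values, neither used here.

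The counts went into edgeR 4.0.16 (R 4.3.3), where filterByExpr (minimum count 10, minimum total 15) chose the genes, TMM gave the scaling and a two-sided quasi-likelihood F test was run over all genes kept. Standard errors (SE) of edgeR were derived from that test, as the absolute log2 fold change divided by the square root of the F statistic. The scripts were tested on simulated data. DESeq2 1.42.0 and limma 3.58.1 (voom with quality weights) served as alternatives, beside RLE or upper quartile scaling, no filter, a minimum of 10 counts in each library, a replicate block, and leaving out each library. Depth ran from 15376261 to 28690279 counts, and 3 counts were taken as the limit that a count of 0 allows. Gene positions and promoters came from RefSeq (GRCm38.p6), exon lengths and overlapping genes from GENCODE M21. Log2 CPM used a prior count of 2. Python 3.11.15 with pandas 2.3.3 and matplotlib 3.10.9 made the tables and figures.

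Groups came from the sample titles, and dose, age and time point from the study's methods. The study states 3 mice per group, and the labels name no litter or batch. The genes named were all 7 Ah receptor genes, genes overlapping them, the targeted gene, the 3 nearest profiles of each tested gene, and in each list the called genes and up to 4 with the smallest unadjusted p. The Ugt1a genes, Slc7a5, Socs2, Cyp2s1 and Ido2, and genes under the filter were named after their values were seen. The values of some genes of the lists are not reported here. The 7 genes and the lists were chosen with earlier results of these data known.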

Additional observations from a re-analysis of the deposited data

How the results depend on the processing

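Among the Ah receptor genes only Cyp1b1 changed direction under an alternative, to 0.0767 without WT replicate 3 (range without 1 library -0.22 to 0.0767). Ahr was called by DESeq2 (1.40) and limma-voom (1.49), and also when Nr2e3-/- replicate 1 was left out (range without 1 library 1.17 to 1.69), and Tiparp only without Nr2e3-/- replicate 1 (range 0.34 to 1.77). So DESeq2 and limma-voom called 1 of the 6 genes and the fits without 1 library 0 to 2. Over all genes, 13 were called in the main fit, 8 with upper quartile scaling, 1093 with DESeq2, 2360 with limma-voom, 70 without the filter, 7 with at least 10 counts in every library and 0 to 3022 without 1 library, the 3022 being those without Nr2e3-/- replicate 1. The replicate block called 0 genes, Hsp90aa1 included (1.61, adjusted p = 0.0996). Whether the shared replicate numbers pair the libraries could not be settled with 3 libraries per group. Deviations from the group means correlated at -0.0766, 0.221 and 0.0234 for numbers 1 to 3. WT replicate 2 correlated best with Nr2e3-/- replicate 2, but WT replicate 3 did so with Nr2e3-/- replicate 1 (0.225). Of the other pathway genes named, Tdo2 turned to 0.00614 without Nr2e3-/- replicate 2 (range without 1 library -0.61 to 0.00614). Cyp1a1, Arnt2 and Il4i1 gave no value with at least 10 counts in every library. The causes were not tested. Depth limits Ahrr, Cyp1a1 and Cyp1b1, which had at most 66 counts in a library.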

Other observations

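Of the WT libraries, replicate 2 had the highest levels both of Arnt2 and of T and NK cell markers. Cd3e was at 0.192, 1.15 and 0.486 CPM, Cd8a at 0.384, 2.50 and 0.520 CPM and Nkg7 at 0.192, 1.73 and 0.486 CPM in WT replicates 1 to 3. In Nr2e3-/- replicates 1 to 3 Cd3e was at 0.199, 0.854 and 0.216 CPM, Cd8a at 0.0662, 1.56 and 0.216 CPM and Nkg7 at 0.199, 1.08 and 0.270 CPM. Each of these markers was thus highest in replicate 2 of its group, as was Arnt2. None of the 6 lymphocyte markers was called by edgeR with all 6 libraries or by DESeq2. At an edgeR unadjusted p under 0.05, 2 of them were lower, where 9.72% of all genes tested were. By limma-voom 1 was called lower, where 7.91% of all genes were. Without Nr2e3-/- replicate 1 edgeR also called 1 lower, where 9.65% of all genes were. The part of these cells in the Arnt2 values was not tested.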
